A study of Mus musculus with 6 samples.

Results

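Progenitors that enter the T-cell pathway receive instructions from the stromal cells around them, and the 8 genes described here, Dll1, Jag1, Cxcl12, Kitl, Il7, Flt3l, Bmp4 and Vcam1, encode signals that stroma is known to present or release. They are 8 of 28048 genes measured in single cells after a co-culture of mouse T-cell progenitors with OP9-DL1 stroma. Cells were kept with at least 200 detected genes, at most 2000 unique molecular identifiers (UMIs, each counting 1 captured RNA molecule) and at most 30% of UMIs from mitochondrial genes. Kept cells with at least 5 UMIs over Col1a1, Col1a2, Col3a1, Sparc and Fn1, which are matrix genes, were called stromal-high, and every other kept cell was called other. This gate took 1902 of 60671 kept cells (3.13%) and left 58769, and none of the 8 ligands was part of it.

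The study asked how the timing of Bcl11b activation in early T-cell progenitors affects their choice between T cells and innate lymphoid cells. DN1, DN2a and DN2b progenitors grown from the marrow of 2 genotypes were sorted and put back on OP9-DL1 cells for 4 days, and 1 sci-RNA-seq3 library was made from the fixed material of each of the 6 combinations, with nuclear RNA named as the molecule. WT stands for C57BL/6 Bcl11b YFP/YFP mice, and ΔTE for mice in which both Bcl11b copies carry the same YFP tag and also lack the timing enhancer. Marrow was pooled from adult mice of both sexes, and both genotypes had the same stroma, so that the reporter allele, the stromal line and the medium were shared by all 6 groups. OP9-DL1 is a single stromal line of marrow origin, derived from mice that lack functional M-CSF and engineered to display the Notch ligand Delta-like 1. The medium contained added IL-7, IL-2, IL-15, stem cell factor and, in the T-cell cultures, Flt3 ligand, and the cultures were washed and strained before fixation to reduce stromal carry-over. Each condition was 1 library, so that genotypes and starting populations are set side by side without a test, and the 6 libraries give the spread for the comparison of stromal-high with other cells.

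Stromal niche cells of the marrow work mainly by contact and over short distances. Membrane-bound Notch ligands trigger cleavage of Notch receptors on the neighbouring progenitor, CXCL12 retains CXCR4-bearing cells, and stem cell factor, IL-7 and Flt3 ligand feed survival and division through cytokine receptors on early lymphoid cells. BMP4 is a secreted morphogen made by several mesenchymal tissues, including thymic stroma, and VCAM-1 holds cells that carry the integrin α4β1.

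Of the 8 ligands, 7 were higher in stromal-high cells than in other cells, at adjusted p under 0.05 in edgeR's quasi-likelihood test with the library as a block. Over all 13594 genes tested, 24.3% were called higher and 28.1% lower, and the median difference was -0.21 on the log2 scale, against a median of 5.32 over the ligands. Flt3l was the exception, with a difference of -0.65 ± 0.42 (SE, 6 libraries; edgeR quasi-likelihood test, Benjamini-Hochberg adjusted p = 0.187). Cxcl12, Kitl and Bmp4 carried most of the counts, with 4266, 1260 and 568 UMIs in stromal-high cells, and their levels in the 2 kinds of cell did not overlap between any libraries. Dll1 and Il7 rested on 17 UMIs each in stromal-high cells, and Jag1 and Vcam1 on 118 and 81. Levels below are UMIs of a gene per 1000000 UMIs of the summed cells (CPM), with exact Poisson 95% intervals that cover counting error only, and the stromal-high sums held 23746 UMIs (ΔTE DN2b) to 839176 UMIs (WT DN2a).

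The gate was checked on marker genes that it did not use. Of the lists below, 12 stromal, 5 adipocyte-lineage, 10 leukocyte, 7 myeloid and 3 endothelial genes were in enough cells to be tested. Of 14 stromal markers, 11 were called higher in stromal-high cells, among them Bgn, a matrix proteoglycan, at 4026 CPM against 86.5 CPM, and Prrx1, a mesenchymal transcription factor, at 1060 CPM against 25.7 CPM. The summed level of the stromal markers ran from 5078 to 8179 CPM over the stromal-high sums of the 6 libraries and from 91.5 to 397 CPM over the other cells. Lum, Dcn and Lepr, which many marrow and connective-tissue stromal cells express, were at or near 0, with 0, 1 and 2 UMIs in stromal-high cells, and the 3 counts taken as the detection limit correspond to 2.01 CPM. Of 6 adipocyte-lineage genes, 5 were called higher, among them Lpl (491 CPM against 12.6 CPM) and Pparg, the master regulator of fat-cell differentiation (215 CPM against 36.6 CPM), while Plin1, which coats lipid droplets, had 1 UMI. All 10 leukocyte genes were called lower, but they were not absent: their sum was 632 to 1009 CPM over stromal-high cells and 3322 to 4326 CPM over other cells. Of 8 myeloid genes, 1 (Tyrobp) was called lower and none higher, with sums of 0 to 124 CPM and 26.5 to 273 CPM, and C1qa and C1qb had 0 UMIs in stromal-high cells. Of 5 endothelial genes, 1 (Pecam1, which leukocytes also express) was called lower and none higher, with sums of 59.2 to 142 CPM against 429 to 538 CPM, and Emcn had 0 UMIs in stromal-high cells and Cdh5 had 1.

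One library stood apart in the stromal-high cells kept and in the mitochondrial share of all its kept cells. WT DN2a gave 1106 of the 1902 stromal-high cells, a share of 5.68% (5.35 to 6.01, exact binomial 95% interval) of its kept cells, and the other libraries gave 0.719% (ΔTE DN1) to 3.81% (ΔTE DN2a). The median mitochondrial share of its stromal-high cells was 13.7%, against 22.9% to 27.8% in the other libraries. Its other cells differed likewise, with a median of 13.3% against 20.8% to 23.9%. Before the limits on UMIs and mitochondrial UMIs, 1340 barcodes of WT DN2a met the gate. The other libraries had 884 (ΔTE DN2b) to 1379 (ΔTE DN2a) such barcodes. Of all barcodes that met the gate with at least 200 genes, 67.9% to 96.2% in the other libraries lay above the limit on UMIs or on mitochondrial UMIs and were left out, against 17.5% in WT DN2a. The share of stromal-high cells depends on these limits, and no test between conditions was made on it. The 7 ligands called higher stayed so without WT DN2a and without each other library in turn.

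Dll1 (ENSMUSG00000014773) encodes Delta-like 1, the Notch ligand that the OP9-DL1 line was built to display. In stromal-high cells it had 2, 10 and 1 UMIs in WT DN1, DN2a and DN2b and 1, 3 and 0 UMIs in ΔTE DN1, DN2a and DN2b, and in the other cells 2, 2, 1, 1, 0 and 1 UMIs in the same order. As levels, the stromal-high sums ran from 0 to 17.7 CPM with a median of 11.2 CPM, and the other cells from 0 to 0.591 CPM with a median of 0.292 CPM. The levels overlapped only because ΔTE DN2b had no Dll1 UMI in its 34 stromal-high cells, where 3 counts would have been 126 CPM. The fitted difference was 5.49 ± 0.62 on the log2 scale (edgeR quasi-likelihood test, Benjamini-Hochberg adjusted p = 9.51e-17), and stromal-high cells were higher in 5 of 6 libraries. The counts do not separate the introduced copy of Dll1 from the endogenous gene.

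Jag1 (ENSMUSG00000027276) encodes a Notch ligand of the Jagged family. Its level in stromal-high cells was 0 CPM in ΔTE DN2b, 74.9 CPM at the median and 115 CPM in WT DN2b, and in the other cells 1.03 to 11.8 CPM with a median of 3.15 CPM. The 5 libraries with a Jag1 UMI in stromal-high cells each had an interval above that of their other cells. The fitted difference was 4.35 ± 0.32 (edgeR quasi-likelihood test, adjusted p = 9.96e-42). ΔTE DN2b was the library at both ends, with no UMI in stromal-high cells and the highest level in other cells, from 20 UMIs.

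Cxcl12 (ENSMUSG00000061353) encodes the chemokine that marrow stroma uses to hold haematopoietic cells. Its level in stromal-high cells was 1962 CPM (1723 to 2224) in WT DN1, 2775 CPM (2664 to 2890.4) in WT DN2a and, highest of the 3, 3542 CPM (3175 to 3940.2) in WT DN2b. In the ΔTE libraries it was 2070.3 CPM (1712 to 2481), 3273 CPM (3087 to 3466) and 3285 CPM (2596 to 4100) for the same starts. Both DN1 libraries were lowest, with intervals that overlap each other and lie below those of the DN2a and DN2b libraries. From there the order was WT DN2a, ΔTE DN2a, ΔTE DN2b and WT DN2b, in which the last 3 had overlapping intervals. The other cells ran from 23.3 CPM in ΔTE DN1 to 127 CPM in WT DN2a, so that the lowest stromal-high level was 15.5 times the highest level in other cells. The log2 ratio within libraries was 5.83 ± 0.85 (SD, n = 6), ranged from 4.45 to 6.83, and had a 2-sided exact permutation p of 0.03125, the smallest that 6 pairs allow. The edgeR fit gave 5.67 ± 0.20 (Benjamini-Hochberg adjusted p = 2.93e-177).

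Kitl (ENSMUSG00000019966) encodes stem cell factor, the ligand of Kit, and added stem cell factor was present in the medium. Stromal-high cells held 573 CPM (448 to 723) in WT DN1, 909 CPM (846 to 976) in WT DN2a and 961 CPM (775 to 1179) in WT DN2b. The ΔTE libraries had 637 CPM (446 to 882), 793 CPM (703 to 891) and 716 CPM (417 to 1146). Ordered by level, each library had an interval that overlapped that of its neighbour. The other cells had 9.03 to 41.3 CPM with a median of 12.3 CPM, and the lowest stromal-high level was 13.9 times the highest of these. The log2 ratio within libraries was 5.71 ± 0.65 (SD, n = 6; 2-sided exact permutation p = 0.03125), and the fitted difference was 5.51 ± 0.20 (edgeR quasi-likelihood test, adjusted p = 2.62e-171). The ratio was lowest in WT DN2a, at 4.46, and 5.51 to 6.11 in the other libraries.

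Il7 (ENSMUSG00000040329) encodes interleukin 7, needed for the survival of early lymphoid cells and likewise added to the medium. It had 2, 11 and 0 UMIs in the stromal-high cells of WT DN1, DN2a and DN2b and 1, 3 and 0 in those of ΔTE, and 6, 0, 0, 4, 4 and 0 UMIs in the other cells. The stromal-high levels ran from 0 to 17.7 CPM and the other cells from 0 to 1.02 CPM, and both DN2b libraries had no Il7 UMI in either kind of cell. The fitted difference was 4.78 ± 0.59 (edgeR quasi-likelihood test, adjusted p = 5.58e-15), with stromal-high cells higher in 4 of 6 libraries. WT DN2a, which gave 11 of the 17 UMIs, weighed on its size: without that library it was 3.75 (edgeR adjusted p = 0.000283).

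Flt3l (ENSMUSG00000110206) encodes Flt3 ligand, a cytokine for early lymphoid and dendritic progenitors that many cell types transcribe. Stromal-high cells had 3, 11 and 0 UMIs in WT DN1, DN2a and DN2b and 0, 3 and 0 UMIs in the ΔTE libraries, or 0 to 24.2 CPM. The other cells had 545 UMIs in all, with levels from 12.9 CPM in WT DN2b to 23.0 CPM in ΔTE DN2b and a median of 18.4 CPM. It was thus detected in the other cells of every library, at levels that overlap those of stromal-high cells. Summed over libraries, its log2 ratio of stromal-high to other cells was -0.66 (-1.45 to 0.03). Leaving out WT DN1, whose 3 UMIs gave the highest stromal-high level, moved the fitted difference to -1.001 and past the threshold (edgeR adjusted p = 0.0457). It was also called lower without the limit on mitochondrial UMIs (-1.08, edgeR adjusted p = 0.000342) and with a gate of 3 UMIs (-1.03, edgeR adjusted p = 0.0205). The annotation places a protein-coding gene, Gm45713, over Flt3l on the same strand, with 294 UMIs in stromal-high and 4192 in other cells (197 and 139 CPM; 0.30 ± 0.19, edgeR adjusted p = 0.172). Both genes together were at 208 CPM in stromal-high and 157 CPM in other cells, the opposite direction to Flt3l alone, and how shared reads were assigned was not tested.

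Bmp4 (ENSMUSG00000021835) encodes a morphogen of the TGF-β superfamily. It had stromal-high levels of 339 CPM (244 to 458) in WT DN1, 359 CPM (319 to 402) in WT DN2a and 418 CPM (299 to 569) in WT DN2b. The ΔTE libraries had 442 CPM (286 to 653), 406 CPM (343 to 478) and 674 CPM (385 to 1094). Here too the intervals of neighbouring levels overlapped. The other cells had 1.77 to 11.9 CPM, and the lowest stromal-high level was 28.4 times the highest level in other cells. The log2 ratio within libraries was 6.56 ± 1.27 (SD, n = 6; 2-sided exact permutation p = 0.03125), lowest in WT DN2a (4.91) and highest in ΔTE DN2b (8.57), where the other cells held 3 UMIs. The fitted difference was 5.99 ± 0.21 (edgeR quasi-likelihood test, adjusted p = 3.54e-178).

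Vcam1 (ENSMUSG00000027962) encodes an adhesion molecule of stromal and endothelial cells. It had 3, 40 and 2 UMIs in the stromal-high cells of WT DN1, DN2a and DN2b and 0, 36 and 0 UMIs in those of ΔTE. The level was 47.7 CPM (34.1 to 64.9) in WT DN2a and 102 CPM (71.1 to 141) in ΔTE DN2a, and the other cells had 0.511 to 2.07 CPM over the 6 libraries. The fitted difference was 5.16 ± 0.40 (edgeR quasi-likelihood test, adjusted p = 2.17e-37), and 4 of 6 libraries were higher in stromal-high cells. Without ΔTE DN2a it was 4.38 (edgeR adjusted p = 2.74e-16). Both libraries without a Vcam1 UMI in stromal-high cells had few such cells, 74 in ΔTE DN1 and 34 in ΔTE DN2b.

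**Figure D1:**
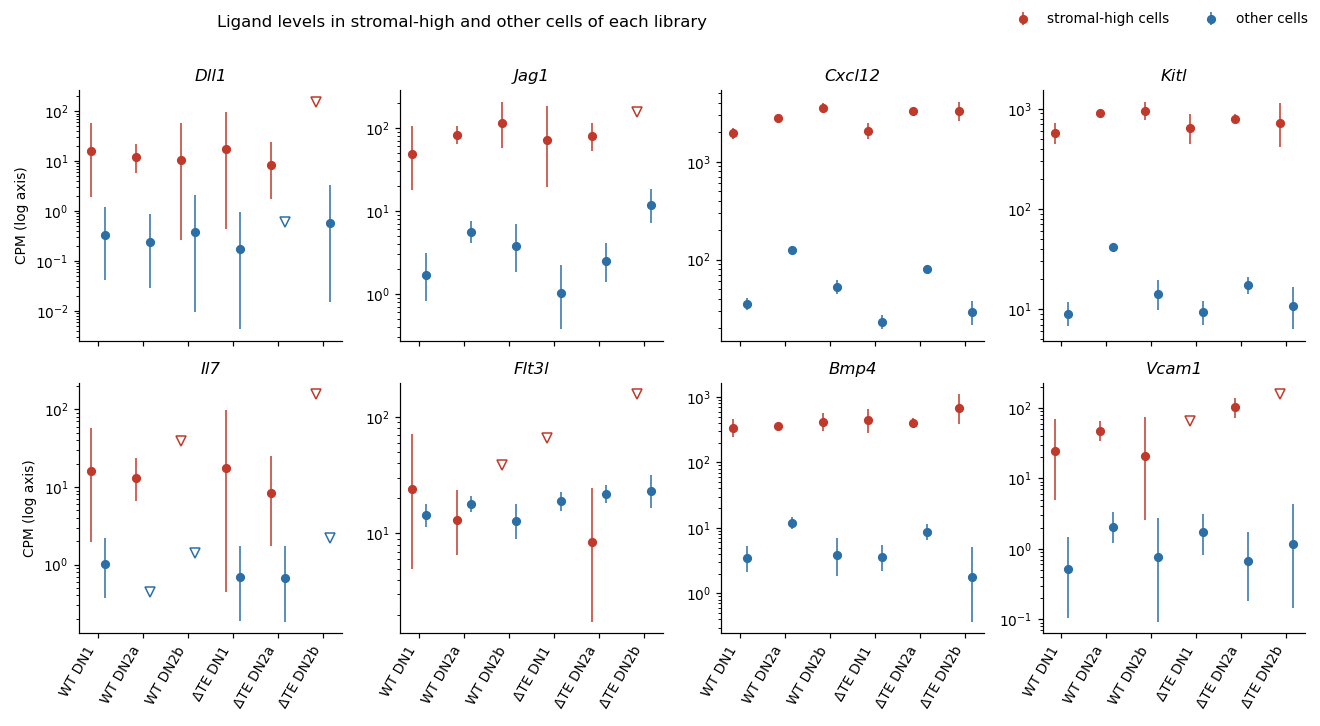
Levels of the 8 ligands (CPM, log axis) in the summed stromal-high cells (red) and other cells (blue) of each of the 6 libraries. Points are levels with exact Poisson 95% intervals, and open triangles mark the upper end of the interval of a sum with 0 UMIs. Cxcl12, Kitl and Bmp4 lie apart in the 2 kinds of cell in every library, while Flt3l levels overlap.

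Cells of this depth give an incomplete reading of each gene, so detection was compared at equal depth as well. Shares were taken over the pooled cells of the 6 libraries, and 1106 of the 1902 stromal-high cells came from WT DN2a. Their intervals cover counting error only, not the spread between libraries. Cxcl12 was seen in 79.1% (77.2 to 80.9, exact binomial 95% interval) of stromal-high cells and in 2.28% of other cells, at median depths of 679 and 429 UMIs. Kitl was seen in 44.1% (41.8 to 46.3) against 0.881%, and Bmp4 in 19.8% (18.0 to 21.6) against 0.289%. After each cell was thinned to 300 UMIs, which left out 89 stromal-high and 9398 other cells, the shares were 53.9% and 1.61% for Cxcl12, 22.1% and 0.573% for Kitl, and 9.38% and 0.215% for Bmp4. The difference between the 2 kinds of cell was thus present at equal depth for these 3 genes. Flt3l was seen in 0.894% of stromal-high and 0.871% of other cells, and in 0.165% and 0.525% after thinning. Of all stromal-high cells, 49.8% had UMIs of 2 or more of the ligands, 14.9% of 3 or more, and none of more than 4, and 11.5% had none. In thinned cells, 19.4% of stromal-high and 0.365% of other cells held 2 or more.

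The ligands were then followed through classes of cells by their number of gate UMIs. Cxcl12 was at 18.9 CPM in cells with 0 gate UMIs, 388 CPM with 1 to 2, 2417 CPM with 3 to 4, 2778 CPM with 5 to 9 and 2932 CPM with 10 or more. Kitl followed the same course, from 4.41 and 126 CPM to 757, 787 and 899 CPM, and so did Bmp4, from 2.12 and 31.9 CPM to 249, 348 and 412 CPM. Cells just under the gate, with 3 to 4 UMIs, were below those just inside it in Cxcl12 and Bmp4, with intervals of 2265 to 2577 against 2659 to 2902 CPM and 202 to 304 against 307 to 393 CPM, and the Kitl intervals overlapped. Dll1, Jag1, Il7 and Vcam1 had their steepest step below 3 to 4 gate UMIs as well, from 0.0705, 1.87, 0.282 and 0.564 CPM with 0 gate UMIs to 7.70, 87.2, 10.3 and 38.5 CPM. At 3 to 4 gate UMIs, Dll1 rested on 3 UMIs (1.59 to 22.5 CPM) and Il7 on 4 (2.80 to 26.3 CPM). Jag1 and Il7 were lower again at 5 to 9 gate UMIs, at 68.0 and 9.52 CPM, with overlapping intervals. Flt3l had another course, with 18.3 CPM at 0 and at 1 to 2 gate UMIs, 0 UMIs at 3 to 4 (interval up to 9.47 CPM), 9.52 CPM at 5 to 9 and 13.2 CPM at 10 or more. Over the same classes the summed leukocyte genes went from 3823 CPM at 0 gate UMIs to 1275 CPM at 3 to 4 and 742 CPM at 10 or more.

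**Figure D2:**
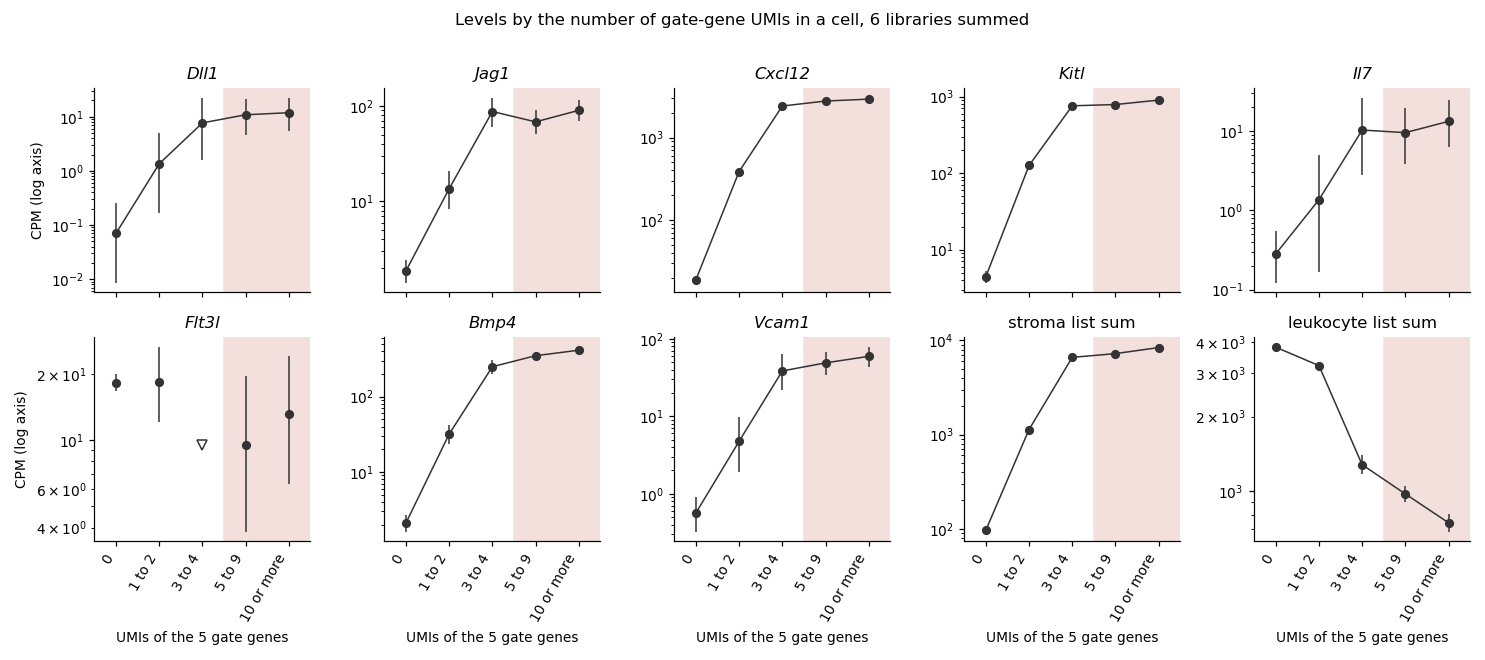
Level (CPM, log axis) of each ligand, of the 14 stromal markers summed and of the 10 leukocyte genes summed, in kept cells of the 6 libraries grouped by UMIs of the 5 gate genes. Bars are exact Poisson 95% intervals, the shaded classes are the stromal-high cells, and the open triangle is the upper end of the interval for 0 UMIs. The ligands other than Flt3l rise most steeply below 3 to 4 gate UMIs, and the leukocyte sum falls over the same classes.

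Ligand UMIs in the other cells were concentrated in cells that carried some matrix RNA. The 3315 cells with 1 to 4 gate UMIs held 73.8% of the Cxcl12 UMIs found in other cells, 79.3% of those of Kitl and 70.6% of those of Bmp4. They held 50.5% for Jag1, 71.4% for Dll1 (5 of 7 UMIs), 42.9% for Il7 (6 of 14) and 57.9% for Vcam1 (22 of 38), but 4.95% for Flt3l and 4.61% for the leukocyte genes. The same cells held 6.16% of the UMIs of all genes in other cells. In cells with no gate UMI, the ligands other than Flt3l were at 0.523% (Kitl) to 2.48% (Il7) of their stromal-high level, and Flt3l was at 160.5%.

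The level in other cells also differed between libraries. For Cxcl12 it was highest in WT DN2a (127 CPM, 119 to 135), then ΔTE DN2a (80.3 CPM, 73.3 to 87.8), WT DN2b (52.7 CPM, 44.3 to 62.2), WT DN1 (35.3 CPM, 30.6 to 40.4), ΔTE DN2b (28.9 CPM, 21.4 to 38.3) and ΔTE DN1 (23.3 CPM, 19.5 to 27.5). The share of stromal-high cells had the same order, 5.68%, 3.81%, 2.15%, 1.27%, 1.00% and 0.719%. That order of shares depends on the mitochondrial limit. Without the limit, WT DN2a had 1250 stromal-high and 18757 other cells, and WT DN2b had 873 and 7535. WT DN2a then no longer had the largest share. Kitl was at 41.3 CPM and 17.4 CPM in the other cells of WT and ΔTE DN2a and at 9.03 to 14.0 CPM elsewhere, and Bmp4 at 11.9, 8.72 and 1.77 to 3.79 CPM. As a percentage of the stromal-high level of the same library, Cxcl12, Kitl and Bmp4 in other cells reached 4.57%, 4.54% and 3.33% in WT DN2a and at most 2.45%, 2.20% and 2.15% in the other libraries. Only Cxcl12 kept the order of the share over all 6 libraries, as Kitl was lowest in WT DN1 and Bmp4 in ΔTE DN2b. Flt3l did not rank with the stromal-high share, being lowest in WT DN2b and highest in ΔTE DN2b. The part of the stromal-high share in these levels was not tested.

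**Figure D3:**
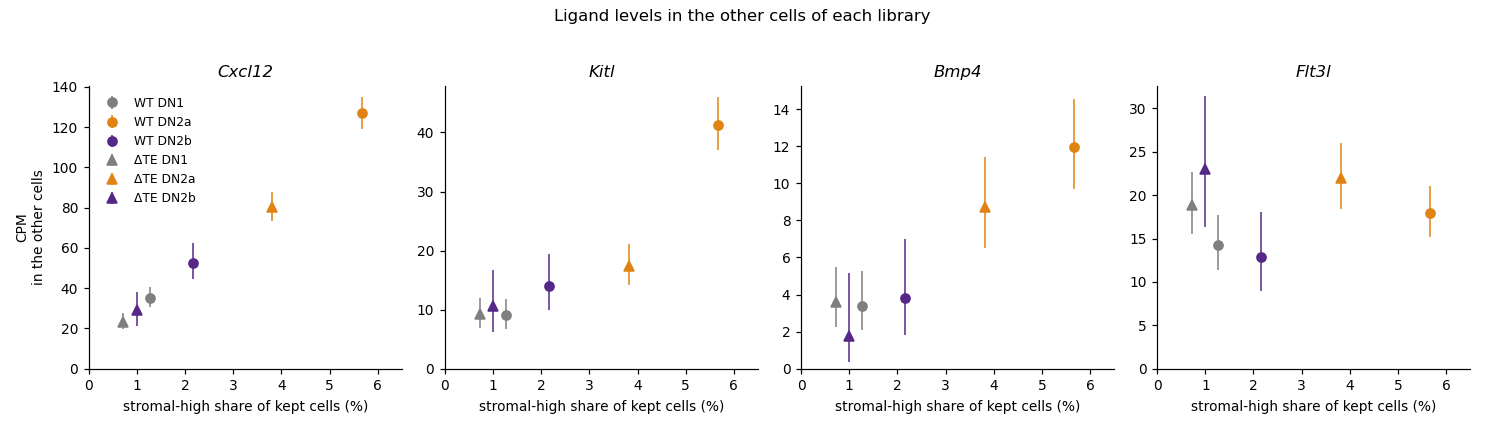
Level of Cxcl12, Kitl, Bmp4 and Flt3l (CPM, linear axes from 0) in the other cells of each library, with exact Poisson 95% intervals, against the percentage of kept cells that were stromal-high. Circles are WT, triangles ΔTE, and colours mark the starting population. Cxcl12, Kitl and Bmp4 are highest in WT DN2a, and Flt3l is not. WT DN2a has the largest stromal-high share (5.68%) under the limits used, but not without the mitochondrial limit.

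The receptors for these ligands were listed as partners. Of 12 receptor genes, 7 were called lower in stromal-high cells, 4 higher and 1 neither. These counts are to be read beside the 28.1% called lower and 24.3% called higher over all genes tested. The median fitted difference was -1.79 (-1.58 with Flt3, which had 0 UMIs in stromal-high cells, put at 3 counts there). Among those lower were Cxcr4, the CXCL12 receptor (18.1 CPM in stromal-high and 84.8 CPM in other cells; -2.28 ± 0.30), Kit, the receptor for stem cell factor (38.2 and 231 CPM; -2.50 ± 0.24), and Il7r (26.1 and 119 CPM; -2.35 ± 0.28), each with an edgeR adjusted p of 3.95e-13 or less. Without WT DN2a the Il7r difference was -3.08. Il2rg, the common chain that pairs with the IL-7 receptor (-2.39 ± 0.24), and Itga4, the α4 integrin that binds VCAM-1 (-2.64 ± 0.20), were lower as well. Cxcl12, Kitl, Il7 and Vcam1 were thus higher in the stromal-high cells and these receptor genes in the other cells. Flt3, the receptor for Flt3 ligand, had 221 UMIs in the other cells and 0 in stromal-high cells. With 3 counts put in stromal-high cells, the pooled ratio was 3.64-fold, which is not a lower bound because the pools mix libraries differently. In other cells Flt3 was at 15.0 CPM in WT DN1, 13.7 CPM in ΔTE DN1 and 2.31 to 4.13 CPM elsewhere. WT DN2a, at 2.31 CPM, held 839176 of the 1493477 stromal-high UMIs. The Flt3 call did not hold in DESeq2 (adjusted p = 0.120).

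Notch and BMP receptors did not all follow that split. Notch1, which drives T-cell commitment, was lower in stromal-high cells (117 against 250.5 CPM; -1.30 ± 0.21), Notch2 was at 68.3 and 73.6 CPM (-0.12 ± 0.23, edgeR adjusted p = 0.685), and Notch3 was higher (119 against 20.7 CPM; 2.49 ± 0.22). Bmpr1a, a type I BMP receptor, was higher in stromal-high cells in the same way as Bmp4 (115 against 3.57 CPM; 4.90 ± 0.30), and Bmpr2, the type II partner, was higher by 1.03 ± 0.20. Itgb1, the β1 chain of many integrins, was higher by 1.40 ± 0.17. The edgeR adjusted p of these called receptors was 1.39e-06 or less. Of stromal-high cells, 35.6% had at least 1 UMI of the 10 leukocyte genes, against 76.6% to 82.8% of the other cells by library, so that a cell without one is not shown to be free of leukocyte RNA. Among stromal-high cells without such UMIs, the called receptors kept their directions, and Kit, Il7r and Itga4 differed more, by -3.72, -4.17 and -4.03. Only the stromal-high side was selected for few leukocyte UMIs, so these larger differences are not a separate test of the split.

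A further list of 26 niche factors was examined, of which 17 could be tested. Higher in stromal-high cells were 7: Csf1, a macrophage growth factor (337 against 8.94 CPM; 5.28 ± 0.21), Fgf7, an epithelial growth factor (194 against 4.93 CPM; 5.43 ± 0.23), Tgfb2, Tgfb3, Igf1, Wnt5a and Spp1. Lower were 4: Tgfb1 (75.0 against 263 CPM; -1.85 ± 0.22), Angpt1, a ligand of Tie2 (524 against 1276 CPM; -1.26 ± 0.18), Ccl25, a thymic chemokine, and Icam1. The edgeR adjusted p of these 11 was 0.00545 or less, and the count of 4 lower among 17 is to be read beside the 28.1% called lower, and that of 7 higher beside the 24.3% called higher, over all genes tested. Jag2, Dlk1, Mib1, Il15, Il6 and Bmp6 were not called. Among the Delta-like genes, Dll3 and Dll4 had 0 UMIs in stromal-high cells and 1 and 2 UMIs in other cells, so that Dll1 was the one with counts enough to test. The median of the 17 was 0.99, against 5.32 for the 8 ligands and -0.21 for all genes. Csf1 counts are those of the transcript, and do not tell whether its protein is functional in this line.

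**Figure D4:**
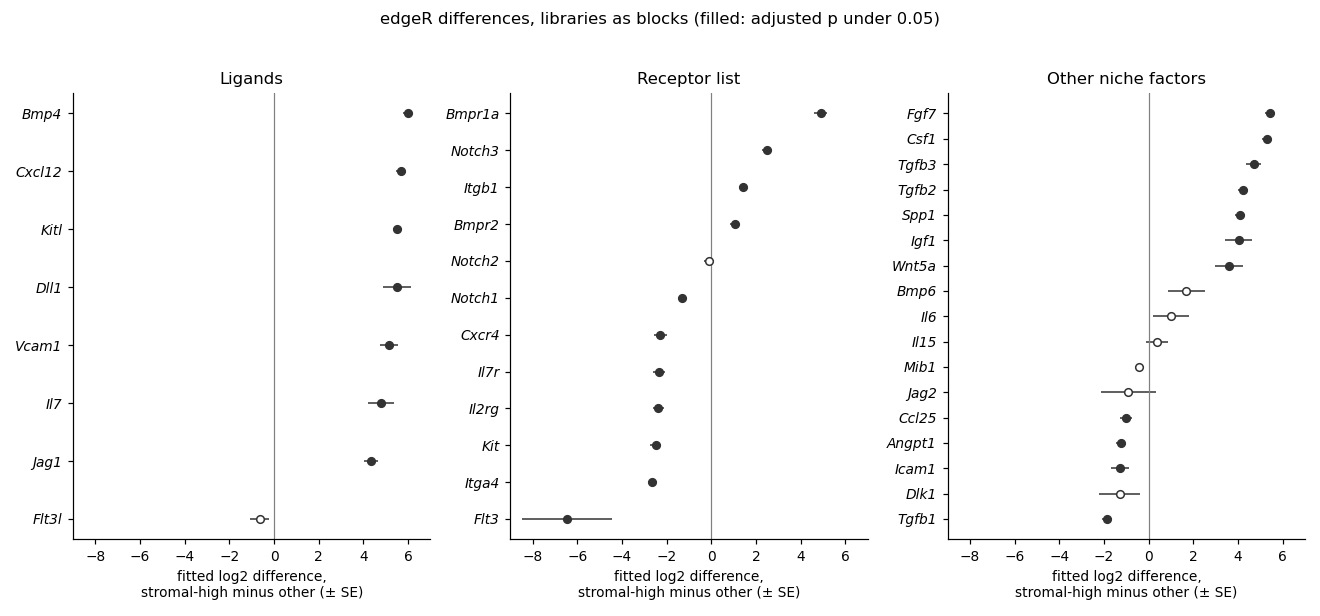
Fitted log2 differences, stromal-high minus other cells, with SE bars, for the 8 ligands, the 12 receptor genes and the 17 testable niche factors. Filled points have an edgeR adjusted p under 0.05. All ligands but Flt3l lie between 4.35 and 5.99. Of the 12 receptors, 7 lie below 0 as calls, beside 28.1% of all genes tested. The Flt3 estimate rests on 0 UMIs in stromal-high cells.

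Stromal-high cells of ΔTE and WT libraries were set side by side for each start, as log2 ratios of ΔTE to WT with counting intervals and no test, since each side is 1 library. In the DN1 start, Cxcl12 was at 0.08 (-0.25 to 0.40), Kitl at 0.15 (-0.47 to 0.75) and Bmp4 at 0.38 (-0.39 to 1.13). In the DN2a start, which has the most stromal-high cells, Cxcl12 was at 0.24 (0.13 to 0.34), Kitl at -0.20 (-0.40 to 0.0014), Bmp4 at 0.18 (-0.12 to 0.47), Jag1 at -0.06 (-0.75 to 0.60) and Vcam1 at 1.09 (0.40 to 1.78). In the DN2b start, Cxcl12 was at -0.11 (-0.48 to 0.25), Kitl at -0.43 (-1.27 to 0.33) and Bmp4 at 0.69 (-0.25 to 1.56). Most of these intervals include 0. Over the 4971 genes with at least 50 UMIs in both DN2a libraries together and a UMI in each, the median ratio was -0.16 and the middle 90% ran from -0.89 to 0.47, so that Vcam1 lay outside that band and Cxcl12 within it. Without the limit on mitochondrial UMIs the ratios at DN2a were -0.0047 for Cxcl12 and 0.58 for Vcam1, and the stromal-high cells of these libraries had median mitochondrial shares of 13.7% (WT) and 22.9% (ΔTE). Whether genotype, culture or library accounts for a ratio cannot be told apart.

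**Figure D5:**
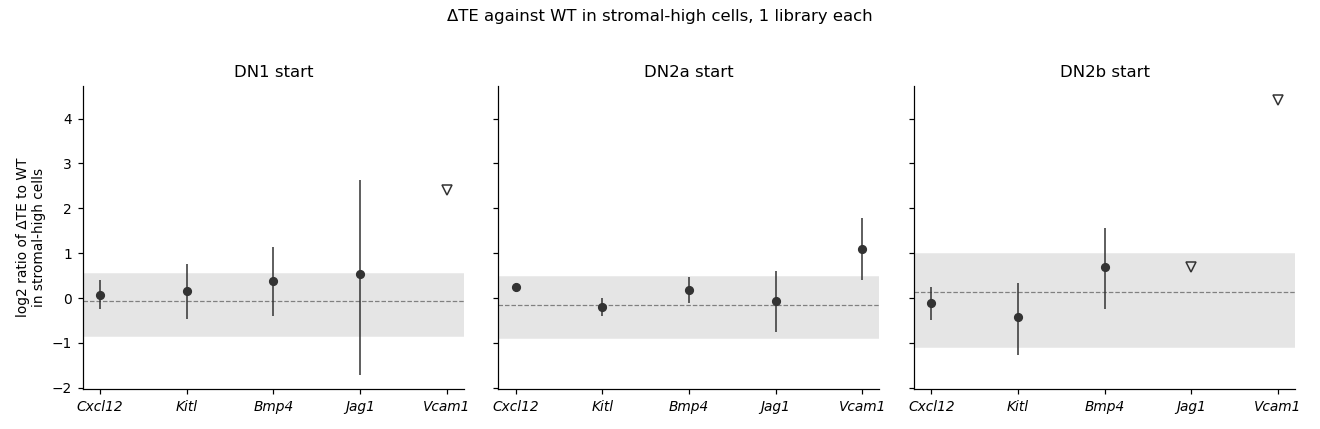
Log2 ratio of ΔTE to WT level in stromal-high cells for the 5 ligands with at least 50 UMIs there and a called difference, by starting population, with exact 95% counting intervals. Open triangles mark the upper end of the interval where the ΔTE library had 0 UMIs, the grey band holds the middle 90% of genes with at least 50 UMIs and the dashed line their median. Vcam1 in the DN2a start, at 1.09, is above the band.

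Barcodes name 3 wells for each library, and these were taken as parts of 1 library and not as replicates. Whether the wells divide 1 culture is not given in the sources used here. In WT DN2a the wells held 326 to 424 stromal-high cells and gave Cxcl12 at 2683 to 2932 CPM, Kitl at 825 to 1041 CPM, Bmp4 at 331 to 373 CPM and Vcam1 at 37.0 to 62.4 CPM. In ΔTE DN2a, with 28 to 338 cells a well, Cxcl12 ranged from 2342 to 3438 CPM and Vcam1 from 43.4 to 114 CPM. The Vcam1 ranges of these libraries overlap through the ΔTE well of 28 cells, which had 1 Vcam1 UMI. The other ΔTE wells, at 72.4 and 114 CPM, were above each WT DN2a well, but from 5 and 30 Vcam1 UMIs. The ΔTE DN2a level thus rested mainly on 1 well, that of 338 cells. In the 4 to 22 cells of the ΔTE DN2b wells, Bmp4 ranged from 209 to 1601 CPM, which shows how little those sums fix a level.

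For the 4 ligands with at least 100 UMIs in stromal-high cells, the genes with the most similar levels were sought over the 12 sums, 2 for each library, among 7680 genes. By Pearson's r of log2(CPM + 10), Cxcl12 was closest to Bgn, Lox, an enzyme that cross-links collagen, and Col6a1, a collagen VI chain (r = 0.998 each). Kitl was closest to Cavin1, a coat protein of caveolae, Sned1 and Nfic (0.997 to 0.998), Bmp4 to Thsd7a, Gnao1 and Col6a3 (0.997 to 0.998), and Jag1 to Il11ra1, Eno1 and Gm49394 (0.981 to 0.985). All 12 sums of a gene share libraries and the split into stromal-high and other cells, which sets most of r. The genes named for Jag1 were themselves sparse, with 0 UMIs in stromal-high cells of at least 1 library for Il11ra1 and Gm49394.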

How the data were processed

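RNA of 6 sci-RNA-seq3 libraries was measured, 1 per genotype and starting population, each after 4 days of culture. The authors deposited counts of UMIs per gene and barcode without normalization or a filter on cells; the build named in the submitters' processing notes is mm9, and the aligner is not given in the sources used here. No coordinates were used, and overlaps between genes were read from GENCODE M21 by Ensembl identifier. Annotated genes lie on the opposite strand over Dll1, Il7, Bmp4 and Vcam1, and the strand setting of the counting is not given in the sources used here. The libraries held 8007395 to 14555100 UMIs in all barcodes and shared 0 barcodes.

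Cells and genes were filtered with the limits that the study states (at least 200 genes, at most 2000 UMIs, at most 30% mitochondrial UMIs, genes in at least 15 cells). The cells kept here are not the cell set of the study, as the numbers of cells differ. No doublet caller was used. UMIs were summed over stromal-high and over other cells of each library, and the 12 sums were fitted with edgeR 4.0.16 (TMM, quasi-likelihood, library as a block) in R 4.3.3, with Benjamini-Hochberg adjustment over all genes tested. The 2 sums come from the same library, which is the pairing. The gate genes were not tested, and standard errors are the fitted difference divided by the root of F. The edgeR p-values rest on the spread between these 6 libraries, which differ in genotype and start, drawn towards a spread shared over genes. They and the standard errors are thus not set by the 6 values of 1 gene alone. For Cxcl12 those values gave an SD of 0.85 and a 2-sided exact permutation p of 0.03125, the smallest that 6 pairs allow. Members with a UMI in all 12 sums were also tested by an exact paired permutation of signs (Python 3.11.15, numpy 2.4.6). Intervals (scipy 1.17.1) are exact Poisson, or exact binomial for shares and ratios. Ccl19 has more than 1 identifier in the files and was left out.

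The text names the 8 ligands, the called receptors and niche factors, markers from lists, and the 3 genes most like each ligand with at least 100 UMIs, over genes at 20 CPM or more in stromal-high cells. Dcn, Lepr, Plin1, Cdh5 and uncalled niche genes were named because of their low values. The ligands and lists were chosen with earlier results of these data known. Alternatives changed the scaling, tool (DESeq2 1.42.0), filters, gate, comparison cells, block and libraries; stromal-high cells without leukocyte UMIs and totals without mitochondrial genes were added after seeing the data. The fit was also run on simulated sums, in which a far smaller part of the genes differed than was called here, and no result rests on it.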

Additional observations from a re-analysis of the deposited data

Results flagged for a closer look

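The log2 ratio of Kitl between stromal-high and other cells in WT DN2a (4.46) lay apart from the other 5 libraries, with a gap of 0.636 of the whole range over the 6 libraries. Chance sets apart about 1 in 20 groups by this measure.

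All 8 ligands were also present in matrix-positive barcodes that the cell filters left out of the main comparison. Those above the mitochondrial limit entered only the alternative without that limit. Part of those above 2000 UMIs entered only the alternative without an upper limit on UMIs. In the 1278 such barcodes above 2000 UMIs, pooled levels were 9.25 CPM for Dll1, 63.0 CPM for Jag1, 1624 CPM for Cxcl12, 529 CPM for Kitl, 10.8 CPM for Il7, 6.54 CPM for Flt3l, 192 CPM for Bmp4 and 27.5 CPM for Vcam1, against 0.677 CPM for a count of 3. In the 3803 barcodes above 30% mitochondrial UMIs they were 11.3 CPM for Dll1, 67.0 CPM for Jag1, 2130.5 CPM for Cxcl12, 669.7 CPM for Kitl, 13.0 CPM for Il7, 4.35 CPM for Flt3l, 292 CPM for Bmp4 and 34.0 CPM for Vcam1, against a limit of 0.767 CPM. Together these barcodes were 72.8% of the 6983 that met the gate. Ptprc, a leukocyte gene, was at 107 CPM in the first set and 50.4 CPM in the second.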

How the results depend on the processing

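The 7 calls of higher ligands held under each alternative that tested them; a minimum of 50 UMIs left Dll1 and Il7 untested and 5 calls. Fitted differences of Cxcl12 ran from 4.29 without the mitochondrial limit to 7.14 against cells with 0 gate UMIs, and those of Kitl and Bmp4 from 4.24 to 7.46 and 4.66 to 7.55 under the same settings. Leaving out 1 library at a time gave 7 calls each time. Without the replicate block, which drops the pairing of the 2 sums of a library, Cxcl12 was at 5.53, Bmp4 at 5.99 and Flt3l at -0.67, and no call of a ligand or receptor changed, while genes called higher went from 3309 to 3370 and genes called lower from 3818 to 3907. Flt3l was called lower with a gate of 3 UMIs (-1.03), without the mitochondrial limit (-1.08) and without WT DN1 (-1.001), over a range of adjusted p from 0.000342 to 0.490. Notch2, not called, changed sign without the mitochondrial limit (0.059) and without ΔTE DN2a (0.030), in a range of -0.56 to 0.030 when 1 library was left out. The DN2a ratio of ΔTE to WT for Cxcl12 changed sign without the mitochondrial limit (-0.0047). The causes were not tested. The median of all genes was -0.21 with TMM, -0.27 with library sizes and -0.07 in DESeq2, a shift of the zero that every difference above carries. Receptors called lower were 6 in DESeq2, where Flt3 was not called. Dll1 and Il7, with 17 UMIs each in stromal-high cells, allow no comparison between libraries, and the DN2b start of ΔTE gives 23746 stromal-high UMIs.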
